A study of Homo sapiens with 6 samples.

Results

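The 8 genes described here encode the ubiquitous subunits of V1, the cytosolic sector of the vacuolar proton pump (V-ATPase). They were ATP6V1A, ATP6V1B2, ATP6V1C1, ATP6V1D, ATP6V1E1, ATP6V1F, ATP6V1G1 and ATP6V1H, and they were chosen by name, with no measured value in the rule. Earlier results of these data were known when the choice was made. All 8 were present among the 31762 genes of the count table, each under 1 identifier. Gene expression was measured by RNA sequencing of total RNA in H460 cells, a human line derived from a large cell carcinoma of the lung. The samples were 3 control libraries and 3 libraries of cells given 20 μM fluoxetine, a selective serotonin reuptake inhibitor prescribed as an antidepressant, for 24 h. The genotype was WT in both groups, and no vehicle was named for the control cells. The model was 1 cell line, and no label said whether the libraries of a group came from separate cultures, so p-values measured the spread between these libraries, which may be technical.

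The V-ATPase carries protons into lysosomes, endosomes and secretory vesicles. Its V1 sector hydrolyses ATP in a hexamer of alternating A and B subunits, the central stalk of D and F turns with each round of hydrolysis, and the peripheral stalks of E and G, together with C and H, hold the hexamer in place against the membrane. The membrane sector V0 contains the rotating ring through which protons pass, and cells regulate the pump by joining V1 to V0 or by releasing it. The pump also serves as a platform for amino acid sensing by mTORC1 at the lysosome, and several of its genes are known targets of the transcription factor TFEB.

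The table held between 16157507 and 27823667 counts per library, and every fluoxetine library was shallower than every control library. Levels are given in CPM, the counts of a gene scaled to the TMM-adjusted size of its library, with the SD over 3 libraries. At this depth 3 counts, the limit that a count of 0 allows, were worth 0.108 to 0.186 CPM (counting error only). Control replicates 1 and 3 differed most within a group, with a chi-square of 21.7 per degree of freedom against 3.49 for the closest pair, so no library was a repeat of another. Of the epithelial markers, KRT8, KRT18 and KRT19 were abundant and their sum with EPCAM was 3057 to 4028 CPM in control cells and 2688 to 3264 CPM in treated cells, but EPCAM had only 4 to 11 counts per library. The lung lineage markers NKX2-1 and SFTPC had 1 to 9 and 0 to 3 counts, so the label of lung was not visible in them. Markers of other cell types summed to 22.04 to 23.76 CPM in control and 16.21 to 17.37 CPM in treated cells, nearly all of it the fibroblast collagens COL1A1 and COL3A1, while the leukocyte gene PTPRC had 0 to 2 counts and the endothelial gene PECAM1 0 to 1. KRT18 and COL3A1 fell in the treated libraries (log2 fold changes of -0.72 and -0.53, edgeR adjusted p = 0.00162 and 0.0145), and the part of this shift in the results below was not tested.

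The promoters are shown for the short elements that they do and do not have in common. RefSeq entries (GRCh38.p14) were at hand for 4 of the 8 genes, and the 150 bases before the start of each are printed 5′ to 3′ on the strand of the gene. ATP6V1A, ATP6V1B2, ATP6V1C1 and ATP6V1H had no entry, so their promoters were not examined. Among these is ATP6V1C1, which had the largest fold change of the 8 genes. Capitals mark the palindrome TCACGTGA, the core of the element bound by TFEB and its relatives, and the GC box GGGCGG on either strand. The windows were chr9:114587619-114587768 on the plus strand for ATP6V1G1, chr22:17628823-17628972 on the minus strand for ATP6V1E1, chr14:67359805-67359954 on the minus strand for ATP6V1D and chr7:128862706-128862855 on the plus strand for ATP6V1F. The table listed 2 starts for ATP6V1E1, and the one nearest the annotated start of the gene was used. RefSeq starts and the annotated gene ends can differ. The window of ATP6V1D lay wholly inside the annotated gene, whose 5′ end is at 67360265, and those of ATP6V1G1 and ATP6V1F reached into theirs.
ATP6V1G1: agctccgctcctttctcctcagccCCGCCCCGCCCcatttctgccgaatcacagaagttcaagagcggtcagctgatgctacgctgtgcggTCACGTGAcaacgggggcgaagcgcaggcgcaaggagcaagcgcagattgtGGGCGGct
ATP6V1E1: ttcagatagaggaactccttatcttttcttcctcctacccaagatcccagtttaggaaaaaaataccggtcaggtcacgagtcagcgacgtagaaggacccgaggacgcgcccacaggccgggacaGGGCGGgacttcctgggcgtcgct
ATP6V1D: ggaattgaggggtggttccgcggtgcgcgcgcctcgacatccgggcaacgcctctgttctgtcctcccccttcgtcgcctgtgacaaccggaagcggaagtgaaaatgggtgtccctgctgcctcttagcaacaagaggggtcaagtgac
ATP6V1F: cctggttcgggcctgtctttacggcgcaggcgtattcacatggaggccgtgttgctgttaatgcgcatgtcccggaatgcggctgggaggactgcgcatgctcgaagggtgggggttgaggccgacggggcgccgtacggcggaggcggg
ATP6V1G1 was the only one of the 4 with the TCACGTGA core, whose first base lay 59 bases before the start and which contained the E-box CACGTG. The core stood in 0.98% of the 35116 promoters of the table and the E-box in 7.26%. GC boxes stood in ATP6V1G1 and ATP6V1E1, against 45.0% of all promoters. Neither the cyclic AMP response element TGACGTCA, present in 1.85% of all promoters, nor the amino acid response element TGATGCAA, present in 0.866%, was found in any of the 4. These counts cover 300 bases around each start, 250 before it and 50 after it, on both strands. A match is a string of letters and not a measured binding site, and a missing match says nothing of binding elsewhere.

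To determine how the V1 genes responded to fluoxetine, the counts of the whole table were compared between the groups by the quasi-likelihood test of edgeR, and p-values were adjusted (Benjamini-Hochberg) over the 15646 genes left by a filter on low counts. All 8 V1 genes passed the filter. ATP6V1A, ATP6V1B2, ATP6V1C1, ATP6V1D, ATP6V1E1, ATP6V1G1 and ATP6V1H rose, and ATP6V1F had a positive fold change that did not pass the test. Thus 7 of 8 genes were called higher at an adjusted p under 0.05, where 7.76% of all tested genes were, and 0 of 8 were called lower, where 5.32% were. The same 7 genes had every fluoxetine library above every control library, a pattern found in 17.5% of all tested genes. Only ATP6V1C1 also reached a fold change of 2, as did 1.25% of all tested genes. The median log2 fold change was 0.46 over the 8 genes and 0.03 over all tested genes. Because these were bulk samples, a rise in every cell and a larger part of cells with high levels cannot be told apart.

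**Figure D1:**
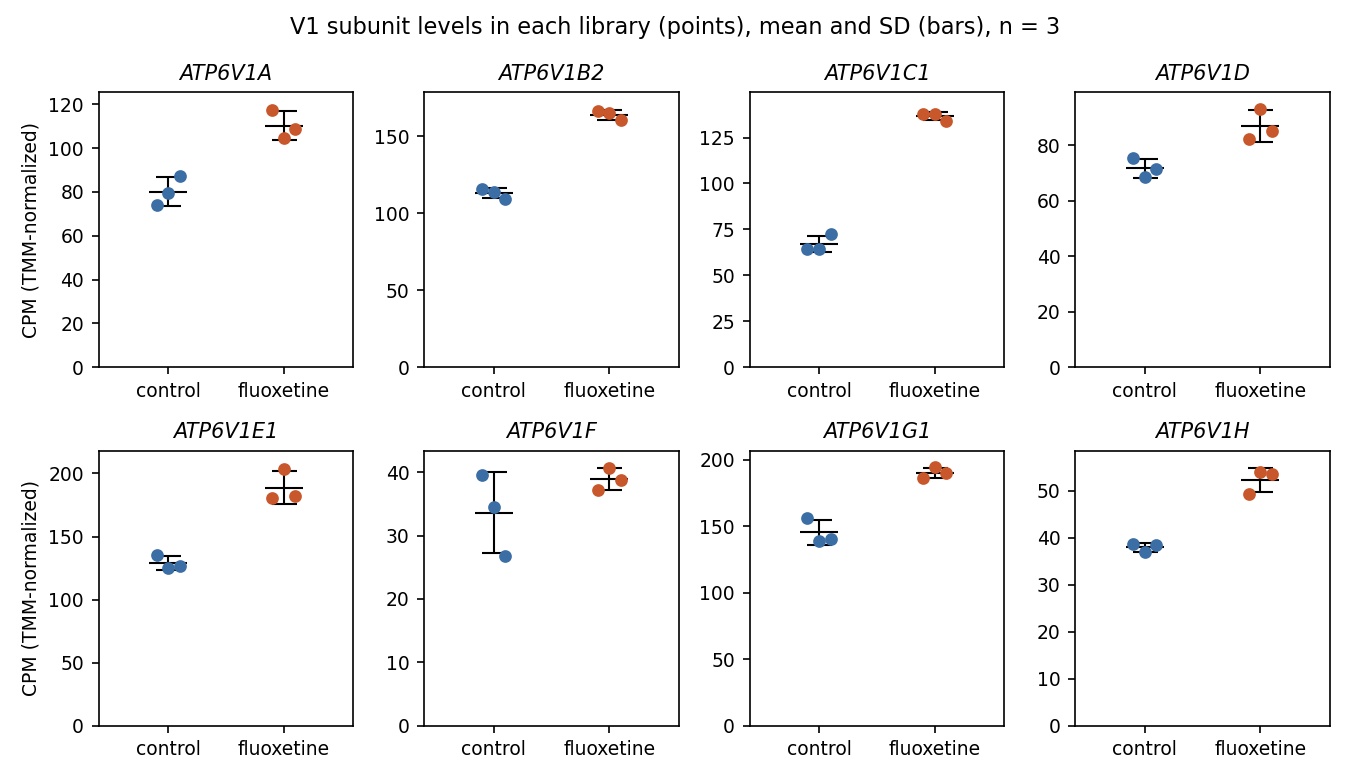
Level of each V1 subunit gene in CPM (vertical axis, TMM-normalized, starting at 0) in every control and fluoxetine library (points), with the mean and the SD over 3 libraries (bars). The treated libraries lie above the control libraries in every panel but that of ATP6V1F, and the gap is widest for ATP6V1C1, where control libraries reach 72.3 CPM and treated libraries start at 134.2 CPM.

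ATP6V1A and ATP6V1B2 encode the hexamer, A carrying the catalytic nucleotide sites and B the regulatory ones. ATP6V1A (ENSG00000114573, GRCh38 chromosome 3, 113747019 to 113812056, plus strand) had 74.0, 79.3 and 87.1 CPM in control replicates 1, 2 and 3 and 117.4, 104.5 and 108.9 CPM in fluoxetine replicates 1, 2 and 3. The groups did not overlap, and fluoxetine replicate 1 was the highest of the 6 libraries. The mean went from 80.2 ± 6.62 to 110.3 ± 6.57 CPM, a log2 fold change of 0.46 with a standard error of 0.09 and an adjusted p of 0.00699 (edgeR). Without fluoxetine replicate 1 the adjusted p (edgeR) was 0.0552 and the log2 fold change 0.40. Over all tested genes that fit called 450 higher and 133 lower, against 1214 and 833 with all libraries. ATP6V1B2 (ENSG00000147416, chromosome 8, 20197367 to 20226819, plus strand), the ubiquitous isoform of the B subunit, had 115.9, 113.7 and 109.4 CPM in the control and 166.7, 165.3 and 160.4 CPM in the fluoxetine libraries. Its libraries were tightly grouped and well apart, at 113.0 ± 3.32 against 164.1 ± 3.28 CPM. The log2 fold change was 0.54 with a standard error of 0.07 (edgeR adjusted p = 0.000827), and the call was kept under all 14 alternatives. The 95% intervals of the log2 fold change were 0.27 to 0.65 for ATP6V1A and 0.39 to 0.69 for ATP6V1B2, and the ratio of ATP6V1A to ATP6V1B2 overlapped between the groups.

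Of the peripheral stalk genes, ATP6V1E1 and ATP6V1G1 encode the coiled-coil E and G pair, which recurs in each of the stalks. ATP6V1E1 (ENSG00000131100, chromosome 22, 17592136 to 17628818, minus strand) had 135.5, 125.1 and 126.5 CPM in the control and 180.7, 203.8 and 182.0 CPM in the fluoxetine libraries. All treated libraries were higher, and the rise from 129.0 ± 5.64 to 188.8 ± 12.98 CPM had a log2 fold change of 0.55 with a standard error of 0.08 (edgeR adjusted p = 0.00155). ATP6V1G1 (ENSG00000136888, chromosome 9, 114587746 to 114598373, plus strand) had 156.6, 139.0 and 140.6 CPM in the control and 186.5, 194.3 and 189.8 CPM in the fluoxetine libraries. The groups were again apart, and the mean went from 145.4 ± 9.72 to 190.2 ± 3.88 CPM. Its log2 fold change was 0.39 with a standard error of 0.07 (edgeR adjusted p = 0.00756). The ratio of ATP6V1E1 to ATP6V1G1 was higher in every treated library than in every control library. Of all ratios between 2 tested genes, 29.5% did not overlap between the groups in either direction. The call of ATP6V1G1 was lost without control replicate 2 (adjusted p = 0.0528) and without fluoxetine replicate 1 (adjusted p = 0.0548). Reads of processed copies could be mistaken for these genes, but the pseudogenes ATP6V1E1P1 and ATP6V1G1P2 averaged 0.5 and 0.33 counts per library.

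ATP6V1C1 and ATP6V1H encode the single-copy subunits that sit between the hexamer and the membrane sector, where C clamps the stalks and H couples V1 to V0 and restrains hydrolysis in released V1. ATP6V1C1 (ENSG00000155097, chromosome 8, 103021063 to 103073051, plus strand) had 64.5, 64.6 and 72.3 CPM in the control and 137.9, 138.0 and 134.2 CPM in the fluoxetine libraries. The groups were separated by 61.9 CPM, more than the range within either group, and the mean went from 67.2 ± 4.46 to 136.7 ± 2.17 CPM. This was the largest change of the 8 genes, with a log2 fold change of 1.02, a standard error of 0.08 and an adjusted p of 2.14e-05 (edgeR). The 95% interval of the fold change was 1.81 to 2.29, so 2-fold lay inside it. The log2 fold change was under 1 in 6 of the 14 alternatives, the lowest being 0.99 without fluoxetine replicate 2 and without a filter on low counts, and among the leave-outs it also passed below 1 without control replicate 1 (0.997) and without control replicate 2 (0.998). ATP6V1C1 stood at position 40 by p-value and 235 by fold change among all tested genes. ATP6V1H (ENSG00000047249, chromosome 8, 53715557 to 53843558, minus strand) had 38.6, 36.9 and 38.3 CPM in the control and 49.2, 54.0 and 53.5 CPM in the fluoxetine libraries. The control libraries differed by less than 2 CPM and all lay below the treated ones. The rise from 37.9 ± 0.921 to 52.2 ± 2.61 CPM had a log2 fold change of 0.46 with a standard error of 0.08 (edgeR adjusted p = 0.00596) and held in all 14 alternatives.

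ATP6V1D and ATP6V1F encode the rotor of the central stalk and had the smallest changes. ATP6V1D (ENSG00000100554, chromosome 14, 67294371 to 67360265, minus strand) had 75.3, 68.5 and 71.3 CPM in the control and 82.2, 93.2 and 85.2 CPM in the fluoxetine libraries. The groups did not overlap, but the gap was only 6.92 CPM. The mean went from 71.7 ± 3.41 to 86.9 ± 5.69 CPM, a log2 fold change of 0.28 with a standard error of 0.08 (edgeR adjusted p = 0.0471). This call was the least stable of the 7: the adjusted p was 0.0909 with DESeq2 and 0.051 with limma-voom, and among the leave-outs it stayed under 0.05 only without control replicate 3 (0.0421). Without control replicates 1 and 2 in turn it was 0.0627 and 0.177, and without fluoxetine replicates 1, 2 and 3 in turn 0.128, 0.153 and 0.149.

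Counts of ATP6V1D are also the most exposed to a neighbour, EIF2S1, which encodes the alpha subunit of translation initiation factor eIF2. EIF2S1 lies on the opposite strand, shares 269 bp of exon with ATP6V1D and averaged 5240 counts per library against 1556 for ATP6V1D. It went the other way, from 284.6 ± 13.8 to 231.7 ± 12.9 CPM (log2 fold change of -0.30, edgeR adjusted p = 0.0241). The strand setting of the counting was not given in the sources used here, and the part of EIF2S1 reads in the values of ATP6V1D was not tested. MPP5 and a Y_RNA gene overlap the same locus without a shared exon base and did not pass the test (adjusted p = 0.326 and 0.601).

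ATP6V1F (ENSG00000128524, chromosome 7, 128862826 to 128865844, plus strand) had 39.5, 34.5 and 26.8 CPM in the control and 37.3, 40.7 and 38.8 CPM in the fluoxetine libraries. The treated libraries were close together, while the control libraries spread over a range that reached above 2 of them. The mean of 33.6 ± 6.42 CPM in control and 38.9 ± 1.71 CPM in treated cells gave a log2 fold change of 0.21 with a 95% interval of -0.08 to 0.51, so neither no change nor the median change of the V1 genes lay outside it (edgeR adjusted p = 0.325). The gene did not pass the test under any of the 14 alternatives, with log2 fold changes between 0.07 and 0.35. The antisense neighbour KCP shares 187 of its 789 exon bases but had only 2, 0 and 1 counts in control and 15, 5 and 4 counts in fluoxetine libraries, against an average of 707 for ATP6V1F.

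The unequal size of these changes was examined by the level of each gene relative to the geometric mean of the other 7 in the same library, which is free of library scaling. For ATP6V1C1 this log2 ratio was -0.31, -0.22 and -0.04 in the control and 0.47, 0.40 and 0.41 in the fluoxetine libraries. Every treated library was above every control library, with a difference of 0.61. The ratio uses CPM without gene length, so its sign says nothing of the order of the genes, and only its difference between the groups is read. ATP6V1D and ATP6V1G1 had lower ratios, by -0.25 and -0.12, and for these too the groups did not overlap. How often the ratio of a gene to 7 others lacks overlap among all tested genes was not examined. With 3 against 3 libraries the smallest exact permutation p is 0.1 (two-sided), which these 3 genes reached, and the adjusted value over the 8 genes was 0.267. The other 5 genes overlapped between the groups, with differences of 0.06 for ATP6V1E1, 0.05 for ATP6V1B2, -0.03 for ATP6V1A, -0.04 for ATP6V1H and -0.30 for ATP6V1F (exact permutation p of 0.3 to 0.8). Leaving out 1 library moved the difference of ATP6V1F to -0.18 (without control replicate 1) or -0.46 (without control replicate 3), that of ATP6V1E1 to 0.02 (without fluoxetine replicate 2) and that of ATP6V1B2 to 0.03 (without fluoxetine replicate 1). Because ATP6V1C1 is among the 7 genes that each of the others was set against, the ratios were also taken to the remaining 6, an alternative chosen after seeing the data. The difference of ATP6V1G1 was then -0.03 and its groups overlapped, while ATP6V1D remained lower without overlap (-0.16). ATP6V1B2 and ATP6V1E1 were then higher without overlap, by 0.14 and 0.16. Of the 28 ratios between 2 subunits, 13 did not overlap between the groups, among them all 7 with ATP6V1C1 and 6 of the 21 without it, where 29.5% of all ratios between 2 tested genes did not overlap in either direction. The 6 of 21 lay near that share and are not read as a result about these genes. The ratios share genes and are given as a description.

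**Figure D2:**
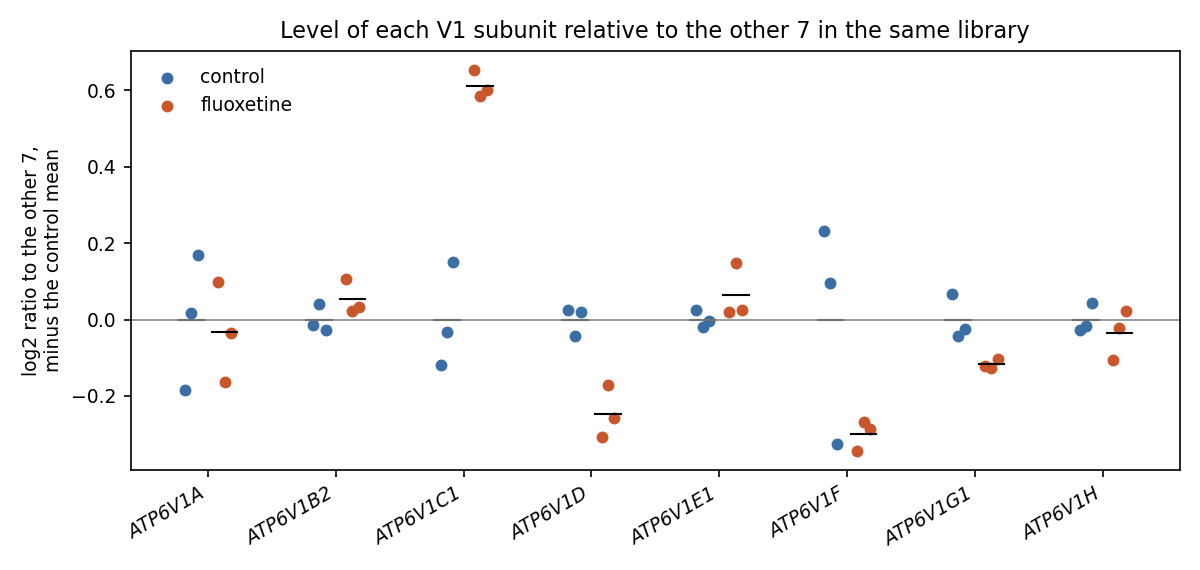
Log2 ratio of each V1 subunit to the geometric mean of the other 7 in the same library, shown as the distance from the control mean (vertical axis, log2), for control and fluoxetine libraries (points, 3 each) with group means (short lines). ATP6V1C1 stands 0.61 above its control mean, ATP6V1D and ATP6V1G1 lie 0.25 and 0.12 below theirs without overlap (for ATP6V1G1 the groups overlap once ATP6V1C1 is left out of the comparison), and the control points of ATP6V1F spread widest.

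To compare levels between the genes, CPM were divided by the kilobases of exon of each gene. In control cells ATP6V1G1 was highest at 111.4 ± 7.45 CPM per kb, followed by ATP6V1F at 42.6 ± 8.14 and ATP6V1E1 at 40.2 ± 1.76 CPM per kb. ATP6V1F and ATP6V1E1 overlapped and could not be ordered. ATP6V1D at 16.9 ± 0.802, ATP6V1A at 15.6 ± 1.29 and ATP6V1B2 at 14.5 ± 0.425 CPM per kb formed a middle group in which neighbours overlapped. ATP6V1C1 at 11.5 ± 0.763 and ATP6V1H at 7.45 ± 0.181 CPM per kb were the lowest. In treated cells ATP6V1C1 reached 23.4 ± 0.37 CPM per kb and lay above ATP6V1A (21.5 ± 1.28), ATP6V1B2 (21.0 ± 0.42) and ATP6V1D (20.4 ± 1.34), which overlapped one another. With the length of the longest transcript in place of all exons, ATP6V1C1 was the lowest of the 8 genes in control cells (12.0 ± 0.795 CPM per kb, against 16.0 ± 0.39 for ATP6V1H), and ATP6V1E1 (92.0 ± 4.02) was above ATP6V1F (47.3 ± 9.03). With that length ATP6V1C1 in treated cells (24.4 ± 0.386) lay below ATP6V1D (47.1 ± 3.08) and overlapped ATP6V1A (24.0 ± 1.43) and ATP6V1B2 (23.8 ± 0.475). With the principal transcript it lay below ATP6V1B2 as well (57.1 ± 1.14). The order in both groups thus depends on the transcripts that the cells use, which was not measured.

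As a share of the summed V1 level per kb, ATP6V1C1 went from 4.43 ± 0.504% to 6.67 ± 0.178% and was higher in every treated library. The shares of ATP6V1E1 (15.45 ± 0.338% to 16.8 ± 0.681%) and ATP6V1B2 (5.57 ± 0.205% to 5.995 ± 0.192%) were also higher without overlap. The share of ATP6V1D went from 6.49 ± 0.219% to 5.83 ± 0.219% and that of ATP6V1G1 from 42.8 ± 0.732% to 41.6 ± 0.403%, both lower without overlap, while ATP6V1A, ATP6V1F and ATP6V1H overlapped. The 4 genes for the subunits present in several copies per pump (A, B, E and G) together made up 69.9 ± 1.495% of the V1 level in control and 70.5 ± 0.366% in treated cells. With the longest transcript these were 69.6 ± 1.06% and 70.8 ± 0.351%, and with the principal transcript 71.2 ± 1.02% and 72.5 ± 0.391%. Shares sum to a whole and do not move independently. How often such shares lack overlap in other sets of genes was not examined.

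**Figure D3:**
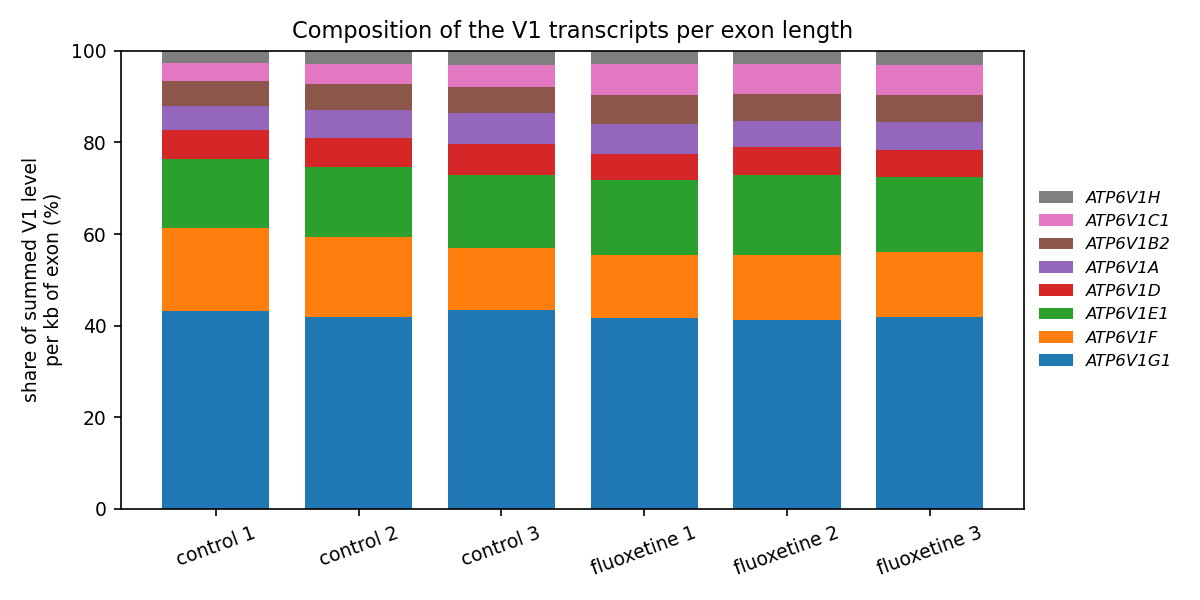
Share of each V1 subunit gene in the summed V1 level per kb of exon (vertical axis, percent from 0 to 100) in each of the 6 libraries (bars). ATP6V1G1 takes over 40% in every library, and the band of ATP6V1C1 is wider in the 3 fluoxetine libraries than in the 3 control libraries.

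The tissue-restricted versions of the V1 subunits were low and did not pass the test. ATP6V1E2, an E subunit of testis, had 7.53 ± 0.970 CPM in control and 8.08 ± 0.356 CPM in treated cells, ATP6V1B1, a B subunit of kidney, had 1.87 ± 0.379 and 2.40 ± 0.816 CPM, and ATP6V1C2 had 0.927 ± 0.195 and 0.875 ± 0.227 CPM. In each of them the groups overlapped (edgeR adjusted p = 0.441 to 0.915). ATP6V1G2, a G subunit of neurons, had 1 to 12 counts per library and was not tested. The doubling of ATP6V1C1 was therefore not accompanied by a called change of its alternative form ATP6V1C2, whose 95% interval of -0.80 to 0.65 on the log2 scale is wide.

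Of the V0 genes, 9 of 11 could be tested and 2 rose, where 7.76% of all tested genes did. ATP6V0D1, the subunit that links the rotor to the membrane ring, had 196.9 ± 10.1 CPM in control and 291.6 ± 16.9 CPM in treated cells, with a log2 fold change of 0.57 (edgeR adjusted p = 0.00107). ATP6V0A1, an isoform of the subunit that holds the stator in the membrane, went from 92.9 ± 2.29 to 129.6 ± 2.99 CPM, with a log2 fold change of 0.48 (edgeR adjusted p = 0.00174). The other 7 V0 genes had log2 fold changes of -0.91 to 0.37 (edgeR adjusted p of 0.0869 or more), and the median over the 9 was 0.08. ATP6V0C, which encodes most of the proton-carrying ring, had only 2 to 4 counts per library and was not tested. In the GENCODE annotation it shares its locus with read-through genes that were not in the count table, and a link to its low count was not tested.

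Among the factors that mature or assemble the pump, 1 of 5 accessory and endoplasmic reticulum assembly genes rose (7.76% of all tested genes). It was ATP6AP1, which went from 189.4 ± 12.5 to 254.8 ± 18.6 CPM (log2 fold change of 0.43, edgeR adjusted p = 0.00752). Of 8 tested genes that join V1 to V0 or bear on its release, 4 rose, again beside 7.76% of all tested genes. DMXL1, DMXL2 and WDR7 belong to the RAVE-like machinery that reassembles V1 with V0, and their log2 fold changes were 0.52, 0.83 and 0.52 (edgeR adjusted p = 0.0215, 0.0125 and 0.0267). NCOA7, of the TLDc family that binds V1, rose by 0.34 on the log2 scale (edgeR adjusted p = 0.0238), from 251.0 ± 24.2 to 318.8 ± 17.5 CPM. ROGDI, of the same machinery as DMXL1, had a log2 fold change of 0.23 that did not pass the test. Over all 25 tested genes of the pump and its assembly outside the 8 V1 genes, 7 rose and 0 fell, against 7.76% and 5.32% of all tested genes. Their median log2 fold change was 0.20. That count of 7 was 4 without control replicate 1, 3 without control replicate 2, 3 without fluoxetine replicate 1 and 4 without fluoxetine replicate 3.

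**Figure D4:**
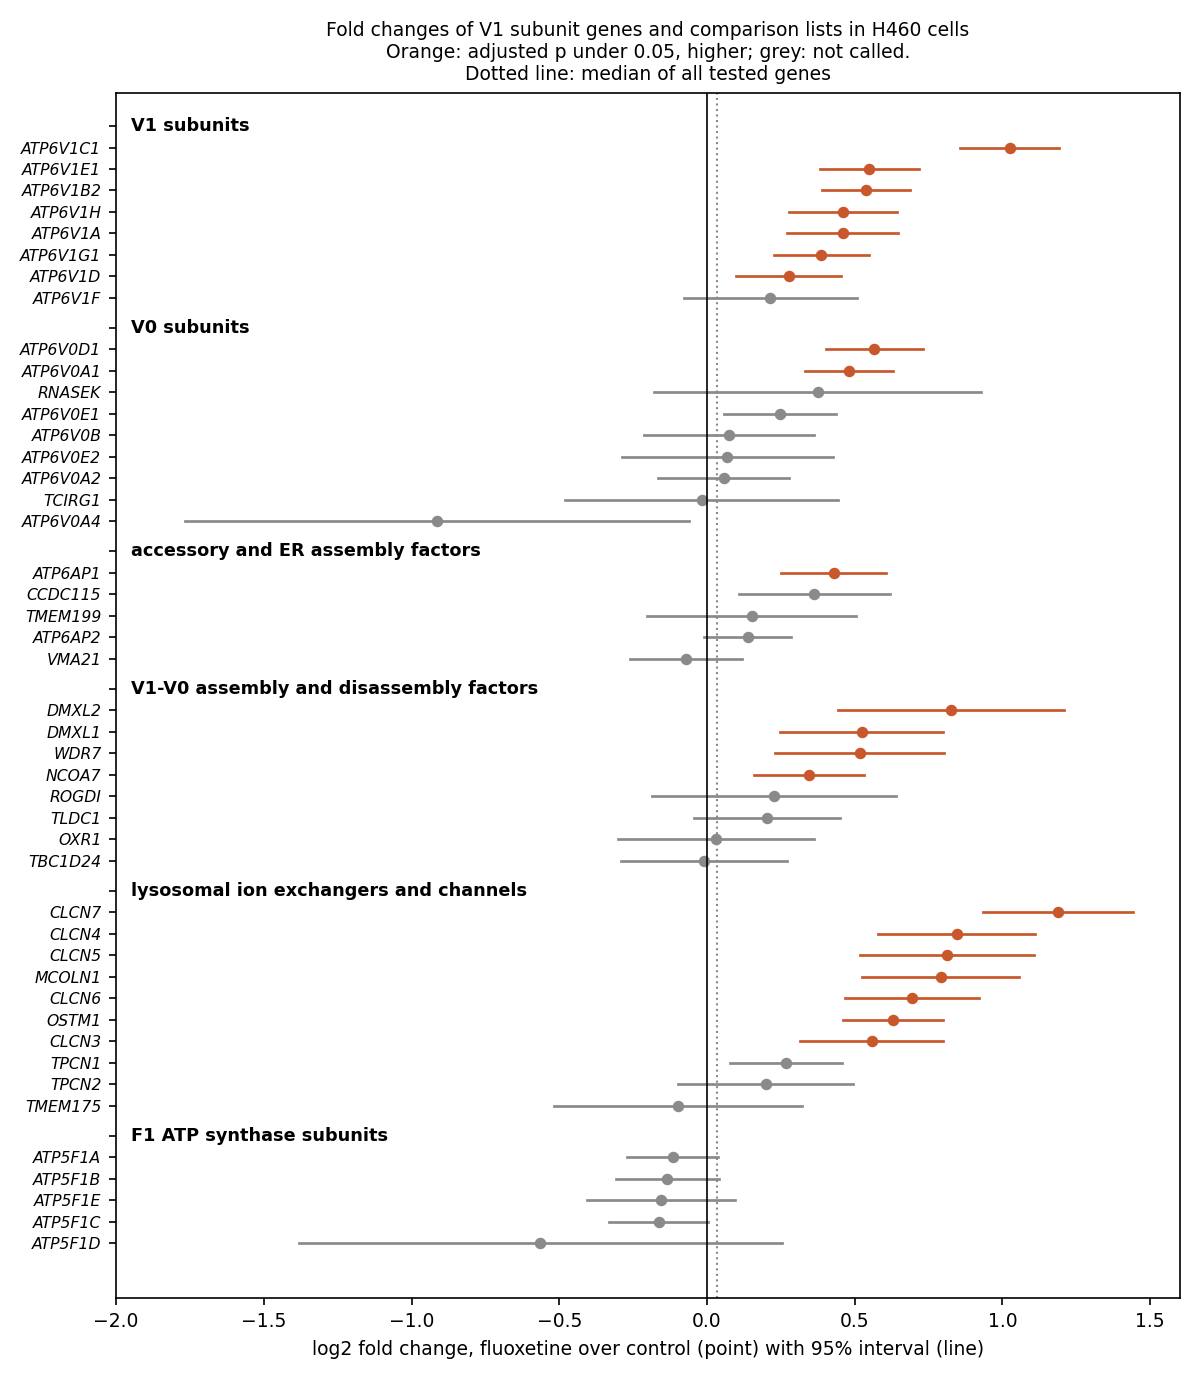
Log2 fold change of fluoxetine over control (horizontal axis, points) with its 95% interval (lines) for the V1 subunit genes and the tested genes of 5 comparison lists, with adjusted p under 0.05 in orange. The V1 genes lie between 0.21 and 1.02, all right of the median of all tested genes (dotted line at 0.03), and the 5 F1 ATP synthase genes lie left of 0.

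Genes that act beside the pump on the lysosome were compared in the same fit. Of 10 lysosomal ion exchangers and channels, which balance the charge of pumped protons or release calcium, 7 rose and 0 fell (7.76% and 5.32% of all tested genes), with a median log2 fold change of 0.66. CLCN7, the chloride-proton exchanger of the lysosome, went from 35.0 ± 4.93 to 79.5 ± 6.89 CPM, with a log2 fold change of 1.19 (edgeR adjusted p = 0.000145). Its partner OSTM1 and the calcium channel MCOLN1 rose by 0.63 and 0.79 on the log2 scale (edgeR adjusted p = 0.000753 and 0.00249). CLCN3, CLCN4, CLCN5 and CLCN6, exchangers of endosomes and related vesicles, rose by 0.56, 0.85, 0.81 and 0.69. Of the 5 Ragulator genes, which anchor the Rag GTPases of mTORC1 signalling beside V1, 1 rose, where 7.76% of all tested genes did. It was LAMTOR3, which went from 27.1 ± 0.936 to 38.7 ± 1.53 CPM (log2 fold change of 0.52, edgeR adjusted p = 0.00472). LAMTOR1 had a log2 fold change of 0.34 without overlap of the groups (edgeR adjusted p = 0.0624), and the median of the 5 was 0.09. The F1 sector of the mitochondrial ATP synthase is the evolutionary relative of V1. Its 5 genes all had negative log2 fold changes, from -0.56 to -0.12, and none passed the test (edgeR adjusted p = 0.187 to 0.41).

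The V1 level was then set against the V0 level in the same library, as sums of CPM per kb. The V1 sum was 277.8, 253.7 and 248.7 in the control and 343.2, 361.5 and 346.5 in the fluoxetine libraries. The V0 sum was 199.0, 185.3 and 169.3 in the control and 213.4, 244.3 and 210.2 in the fluoxetine libraries. Both sums were higher in every treated library, by 1.35 times for V1 and 1.21 times for V0. The log2 ratio of V1 to V0 was 0.50 ± 0.05 in control and 0.66 ± 0.08 in treated cells, and each treated library was above every control library, the nearest by 0.57 against 0.55. With the length of the longest or of the principal transcript the groups overlapped, and the difference was 0.13 and 0.11. The difference of 0.16 was 0.40 when the geometric mean of the subunits replaced the sum. The ring gene ATP6V0C, with 2 to 4 counts per library, is nearly missing from the sum. In the geometric mean it weighs as much as any other V0 gene. So does ATP6V0A4, which had 15 to 18 counts in control and 4 to 8 counts in fluoxetine libraries. The part of these low genes in the value of 0.40 was not tested. The ratio counts transcripts per length and not assembled pumps. How often such sums and their ratios lack overlap in other sets of genes was not examined.

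The genes outside the lists whose level followed the V1 genes most closely were STC2, NSDHL, CSF2RA, CTSA and MAP1LC3B. Their log2 CPM had Pearson correlations of 0.9985 to 0.99661 with the mean standardized V1 level over the 6 libraries. The 6 points share their libraries and fall into the groups of the treatment, so the correlation also contains the contrast. STC2, a secreted glycoprotein, went from 283.9 to 402.1 CPM, and CTSA, the lysosomal protective protein cathepsin A, from 92.2 to 175.9 CPM. NSDHL, an enzyme of cholesterol synthesis, went from 62.0 to 116.0 CPM, CSF2RA, a cytokine receptor subunit, from 38.7 to 66.8 CPM, and MAP1LC3B, which encodes the autophagosome protein LC3B, from 77.2 to 104.4 CPM. The V1 genes themselves had correlations with their shared mean from 0.67 for ATP6V1F and 0.87 for ATP6V1A to 0.99 for ATP6V1E1.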

How the data were processed

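RNA was sequenced in 3 control and 3 fluoxetine libraries of H460 cells as paired-end reads of 150 bases. The authors deposited raw counts of reads per gene, without normalization or pooling, for 31762 genes. The deposited table also holds their own log2 fold changes and p-values, which were not used, and 0 columns of per-sample values were left aside. The submitters' processing notes name fastp 0.20.0, HISAT2 2.1.0, HTSeq 0.10.0 and DESeq2 1.18.1. The strand setting was not given in the sources used here. Gene positions were compared with GENCODE release 29 (GRCh38), which holds 31635 of the genes, 96.81% of them with the same start and end.

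The test was run on the counts with edgeR 4.0.16 under R 4.3.3 (TMM, filterByExpr, quasi-likelihood test, no covariate) with Benjamini-Hochberg adjustment over 15646 genes. A gene was called at an adjusted p under 0.05. Relative levels were tested by exact permutation over libraries. Exon lengths came from the union of annotated exons.

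The 8 genes and all lists were chosen with earlier results of these data known. The text names all V1 genes, every called gene of the other lists, overlapping neighbours and pseudogenes, and the 5 genes outside the lists most correlated with the V1 level. Other genes of the lists were named after their values were seen, such as the uncalled isoforms, ATP6V0C, ROGDI, LAMTOR1 and the cell type markers.

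Alternatives were DESeq2 1.42.0, limma-voom (limma 3.58.1), RLE normalization, library size only, no filter, at least 10 counts in every library, thinning to equal depth, a replicate block and leaving out each library, and for levels other transcript lengths. The principal transcript length and the relative level without ATP6V1C1 were added after seeing the data. The scripts were tested on simulated data.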

Additional observations from a re-analysis of the deposited data

How the results depend on the processing

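All 8 V1 genes had positive log2 fold changes under all 14 alternatives. The number called was 6 with DESeq2, limma-voom, RLE normalization and no filter on low counts, each time without ATP6V1D, and leaving out each library in turn gave between 4 and 7. The number called with at least 2-fold was 0 with DESeq2, RLE normalization and no filter, and 0 to 1 with each library left out. Of the other genes of the pump and its assembly, between 3 and 7 were called with each library left out. Over all tested genes, 1214 were higher and 833 lower. Leaving out 1 library moved these counts to between 450 and 1853 higher and between 133 and 1668 lower, and without a filter 1393 were higher and 1516 lower, so that 47.9% of calls were higher in place of 59.3%. The V1 over V0 difference was 0.16 on the log2 scale with sums, 0.40 with geometric means, and 0.13 and 0.11 with the longest and the principal transcript. The relative level of ATP6V1A, -0.03 in all libraries, lay between -0.13 and 0.051 with each library left out. With ATP6V1C1 left out of the comparison, the relative levels of ATP6V1A and ATP6V1H turned from -0.03 and -0.04 to 0.055 and 0.053. For these shifts the cause was not tested.

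Whether replicate numbers pair the libraries was not settled. Same-numbered libraries had correlations of 0.03, 0.12 and 0.39, and the other pairs lay between -0.38 and 0.32. Control replicates 2 and 3 correlated best with the fluoxetine library of their own number. Control replicate 1 correlated best with fluoxetine replicate 2 (0.32). With the replicate number as a block, 7 V1 genes and 9 of the other genes of the pump and its assembly were called. In all, 2231 genes were higher and 1787 lower. The adjusted p (edgeR) was 0.0119 for ATP6V1D and 0.0721 for ATP6V1F.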
